A study of Mus musculus with 21 samples.

Results

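The 3 libraries described here look out from neighbouring fragments at the start of Satb1 in adult mouse thymus. They are 3 of the 21 libraries of the series and 3 of its 4 thymus libraries. They were chosen by their labels, with earlier results of these data known. The viewpoint, the fragment whose contacts are read, lay at the Satb1 promoter in the first library, which was cut with NlaIII and DpnII. It was placed at +1.5 kb in the second, cut with NlaIII and Csp6I, and at -6 kb in the third, cut with DpnII and Csp6I. The series applied 4C-seq, circular chromosome conformation capture read by sequencing, to viewpoints at the alpha-globin, beta-globin, Oct4 and Satb1 loci.

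All 3 thymus libraries came from C57BL/6 mice, with cells of 1 adult thymus fixed in 2% formaldehyde for 10 minutes. Whole thymus was used with no sorting of cells named in the labels, so each profile averages over the cell types of that organ. The labels do not say whether the 3 libraries share an animal. A promoter library from embryonic stem (ES) cells of the line IB10/E14 and one from pooled C57BL/6 fetal brains at 14.5 days post coitum, both cut with NlaIII and DpnII, served for comparison. A further thymus library, cut with DpnII and Csp6I, looked back from a viewpoint labelled -470 kb. No agent or engineered allele is named for any of these groups. Each group held 1 library, so no difference has a replicate check and no test was run.

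Satb1 encodes a chromatin organizer that binds at the base of chromatin loops and is highly expressed in developing T cells of the thymus. In 4C-seq, fixed chromatin is cut and ligated, so fragments that lay close to the viewpoint become joined to it and can be amplified from it. The contact signal falls with distance along the chromosome, and fragments that stand above this decay are the ones examined as candidate contacts. The first enzyme sets the fragments that can be joined, so 3 enzyme combinations sample the same locus through different cutting sites. In these libraries each viewpoint had its own combination, so viewpoint and enzyme pair cannot be told apart.

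The stretch upstream of Satb1 shows the cutting sites involved. It is the 250 bases before the most upstream of 5 RefSeq starts of the gene (GRCm38.p6, chr17:51833291-51833540, minus strand), and capitals mark first GATC, cut by DpnII, and then CATG, cut by NlaIII.
Satb1 promoter: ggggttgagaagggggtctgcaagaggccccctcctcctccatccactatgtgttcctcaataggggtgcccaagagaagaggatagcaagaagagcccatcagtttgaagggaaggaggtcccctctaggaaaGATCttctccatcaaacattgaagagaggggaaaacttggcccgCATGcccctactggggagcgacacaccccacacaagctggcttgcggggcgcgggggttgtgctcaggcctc
GTAC, the site of Csp6I, does not occur in these letters. Each of these 4-letter sites reads the same on both strands, and none overlaps another here. Among 32851 promoter windows of 250 bases, 53.9% held CATG, 41.9% held GATC and 31.5% held GTAC. Of the 5 Satb1 windows 2 held CATG, 4 held GATC and 3 held GTAC. The labels do not say which start the promoter viewpoint lies at, and no mm9 sequence was used.

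Satb1 is read from the minus strand, so its upstream side lies at higher coordinates. In the gene table its protein-coding neighbours were Kcnh8, a potassium channel gene, on the higher-coordinate side and Tbc1d5, a Rab GTPase-activating protein gene, on the lower side. Placed at the highest smoothed signal, the promoter viewpoint lay at 51.974 Mb of chromosome 17 (mm9). The +1.5 kb viewpoint lay 4 kb lower, at 51.970 Mb, and the -6 kb viewpoint 3 kb higher, at 51.977 Mb. The order of the labels was kept, while the distances differed from the labels by 2.5 and 3 kb in a signal smoothed over 5 kb.

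The profiles covered positions 51700000 to 53000000 in steps of 1 kb and were compared in 252 shared bins of 5 kb, 51 on the lower side and 201 on the higher side. Scaled signal is a bin's signal over the mean of its library in these bins, so 1 is that library's mean. Distances are from the promoter viewpoint, and bins within 10 kb of any of the 3 viewpoints were left out. Mean signal over the bins, in the authors' normalized units, was 0.00755 from the promoter, 0.0102 from +1.5 kb and 0.0447 from -6 kb. The -6 kb profile was thus 5.91 and 4.38 times as high as those of promoter and +1.5 kb before scaling.

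The libraries differed in how much of the region carried a graded signal. The floor was set at 2 times each library's commonest non-zero value. At or under it lay 62.3% of bins from the promoter, 48.8% from +1.5 kb and 23.02% from -6 kb. The commonest value itself filled 33.9%, 38.4% and 6.27% of positions, in the same order. Low bins of the promoter and +1.5 kb libraries therefore have no order among themselves, and depth is unknown. In the +1.5 kb library the median scaled signal, 0.180, was a value repeated in many bins just over the floor of 0.173. Its bins counted as above the floor therefore include tied ones.

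**Figure D1:**
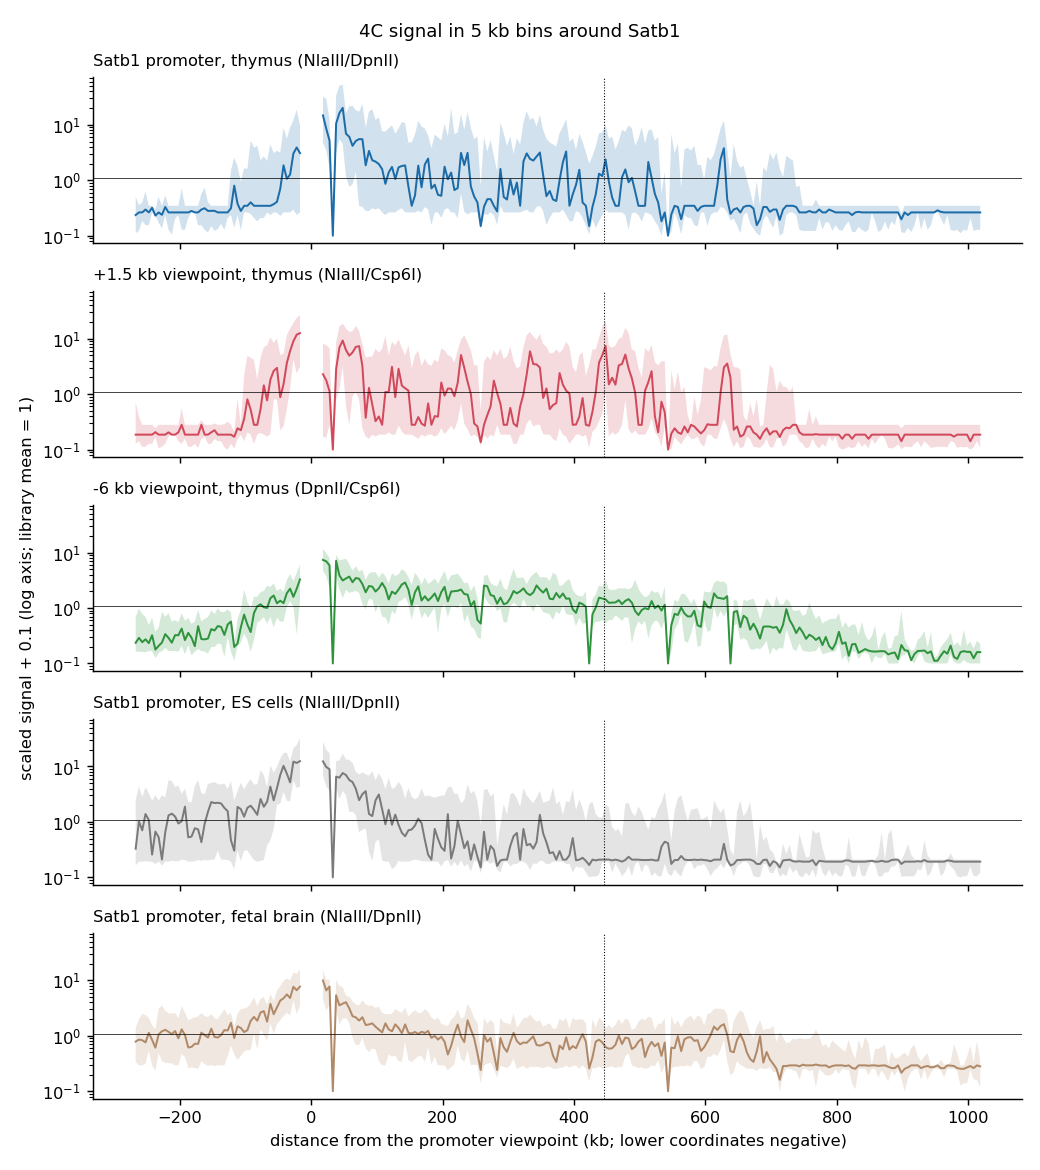
Scaled 5 kb signal plus 0.1 (log axis) against distance from the promoter viewpoint in kb, for the 3 thymus libraries and the promoter in ES cells and fetal brain. Shading spans the lower and higher window values, the horizontal line is the library mean, and the dotted line marks the -470 kb viewpoint. The thymus profiles stay low beyond 100 kb on the lower-coordinate side and reach the library mean as far as 628 to 638 kb on the higher side.

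In thymus all 3 viewpoints contacted the upstream, higher-coordinate side more than the side that holds the gene's body and Tbc1d5. The farthest lower-side bin at or above the library mean lay 42 kb from the promoter viewpoint in the promoter library, 72 kb in the +1.5 kb library and 77 kb in the -6 kb library. On the higher side the farthest such bins lay at 628, 638 and 633 kb, starting at 52.600, 52.610 and 52.605 Mb. The 3 outer ends on the higher side thus fell in neighbouring bins. In ES cells the corresponding reach was 252 kb on the lower side and 348 kb on the higher side, and in fetal brain it was 247 and 628 kb.

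Beyond 50 kb every distance band was higher on the upstream side in each thymus library. Between 100 and 200 kb the mean scaled signal was 1.16 on the higher side and 0.21 on the lower side from the promoter. From +1.5 kb the same means were 0.82 and 0.11, and from -6 kb they were 1.85 and 0.28. The promoter library had 19 of its 20 lower-side bins of this band at the floor and the +1.5 kb library 17, so no side ratio is given for them. The -6 kb library had 3 there, and its side ratio was 6.57, while it was 0.69 in ES cells and 1.13 in fetal brain. In the farthest matched band, 200 to 267 kb, all 14 lower-side bins were at the floor from the promoter and from +1.5 kb. From -6 kb 5 of the 14 were, with a side ratio of 9.35, against 0.53 in ES cells and 0.95 in brain.

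**Figure D2:**
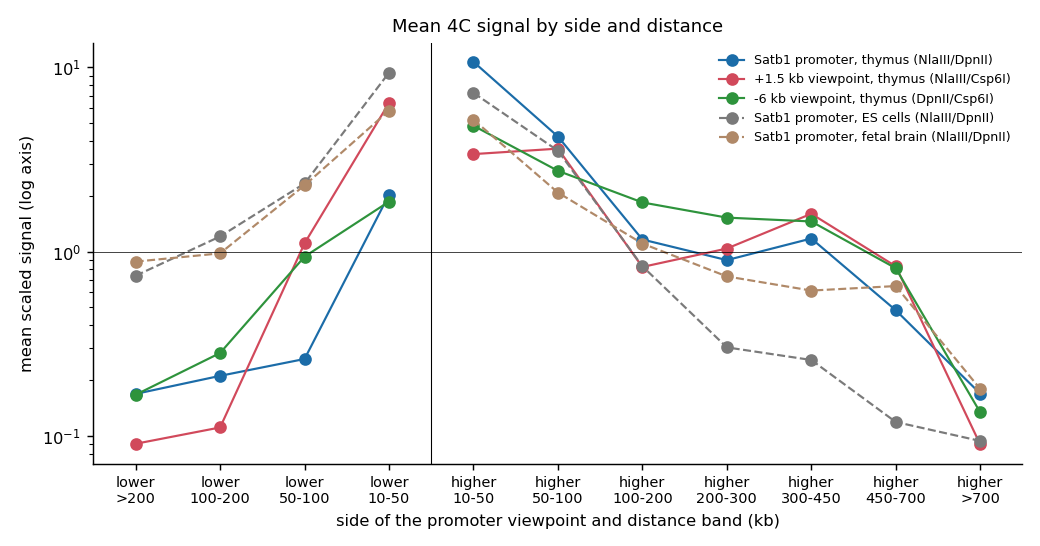
Mean scaled signal (log axis) in each band of distance in kb, for the lower-coordinate and higher-coordinate sides, 1 point per library. Between 100 and 200 kb the 3 thymus libraries stand at 0.11 to 0.28 on the lower side and at 0.82 to 1.85 on the higher side.

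Close to the gene the viewpoints parted. Between 10 and 50 kb the promoter library averaged 2.04 on the lower side and 10.7 on the higher side, a ratio of 5.26. The -6 kb library had the same direction, with 1.87 and 4.82. The +1.5 kb library, whose viewpoint lies downstream of the start by its label, had the opposite one, with 6.41 on the lower side and 3.38 on the higher side. Its highest bin lay on the lower side at 51.955 Mb, 17 kb from the promoter viewpoint, at a scaled signal of 12.5. The highest bin of the promoter library was at 52.020 Mb, 48 kb upstream, at 20.2, and that of the -6 kb library at 51.990 Mb, 18 kb upstream, at 7.29. These nearest bins are at unequal distances from the 3 viewpoints. Between 50 and 100 kb the +1.5 kb library read 1.11 on the lower side and 3.62 on the higher side, the direction of the other two.

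The near lower-side difference also shows in the share of signal per side. Within the reach of the lower side, 86.9% of the signal lay on the higher side from the promoter, 78.5% from -6 kb and 61.8% from +1.5 kb. The +1.5 kb share rested on the bins nearest the viewpoint, and was 72.4% when 20 kb around it were left out and 47.03% with the lower window values.

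Across bins the 3 profiles ranked the region alike. Spearman's rho of signal over the 252 bins was 0.85 for promoter and +1.5 kb, 0.87 for promoter and -6 kb and 0.84 for +1.5 kb and -6 kb. Pearson's r of log2 signal was 0.79, 0.77 and 0.74. Bins share the decay with distance, and neighbouring bins share smoothing, so they are not replicates and these values only describe the profiles. Between the thymus and the ES or brain libraries rho was 0.52 to 0.67 over all bins, and 0.71 to 0.84 on the higher side alone. The higher-side values between thymus viewpoints were 0.83 to 0.88, and on that side the ranges within thymus and between tissues overlapped. ES cells and brain had a rho of 0.83 and an r of 0.83 over all bins, near the values between thymus viewpoints.

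Likeness was smaller once the decay was divided out. Observed over expected (O/E) is the signal over a monotone decay fitted to both sides of the same library, with a pseudocount of 10% of the library mean. The rank correlation of O/E was 0.66 for promoter and +1.5 kb, 0.69 for promoter and -6 kb and 0.54 for +1.5 kb and -6 kb. Part of this is the side difference itself, because 1 decay serves both sides. On the higher side alone rho was 0.54, 0.45 and 0.28, and on the lower side, where much of the signal is at the floor, -0.09, -0.35 and 0.50. Between 100 and 700 kb upstream, in 120 bins, it was 0.53, 0.48 and 0.35. From thymus to ES cells or brain, rho of O/E over all bins ran from -0.06 to 0.11. On the higher side it ran from 0.02 to 0.23, and between 100 and 700 kb upstream from 0.01 to 0.27. Pearson's r of log2 O/E on the higher side was 0.29 to 0.63 from thymus to ES cells or brain. Between thymus viewpoints it was 0.38 to 0.62, so these ranges of r overlapped.

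The likeness was lower among bins above the floor in both libraries, which were 36.5%, 37.3% and 50.8% of the 252 bins for the 3 pairs. The rank correlation of signal was then 0.58 for promoter and +1.5 kb, 0.56 for promoter and -6 kb and 0.47 for +1.5 kb and -6 kb. The rank correlation of O/E in these bins was 0.48, 0.43 and 0.31. In both sets of bins +1.5 kb and -6 kb, the pair farthest apart, had the lowest rho, but this order depended on the settings. With the lower window values, rho of signal was 0.634 for promoter and +1.5 kb, 0.697 for promoter and -6 kb and 0.725 for +1.5 kb and -6 kb, and rho of O/E was 0.367, 0.494 and 0.378. With a power-law decay, rho of O/E was 0.660, 0.599 and 0.631. No pair was therefore the least alike in every setting. Every pair shares 1 enzyme, and promoter and +1.5 kb share the first one, NlaIII.

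**Figure D3:**
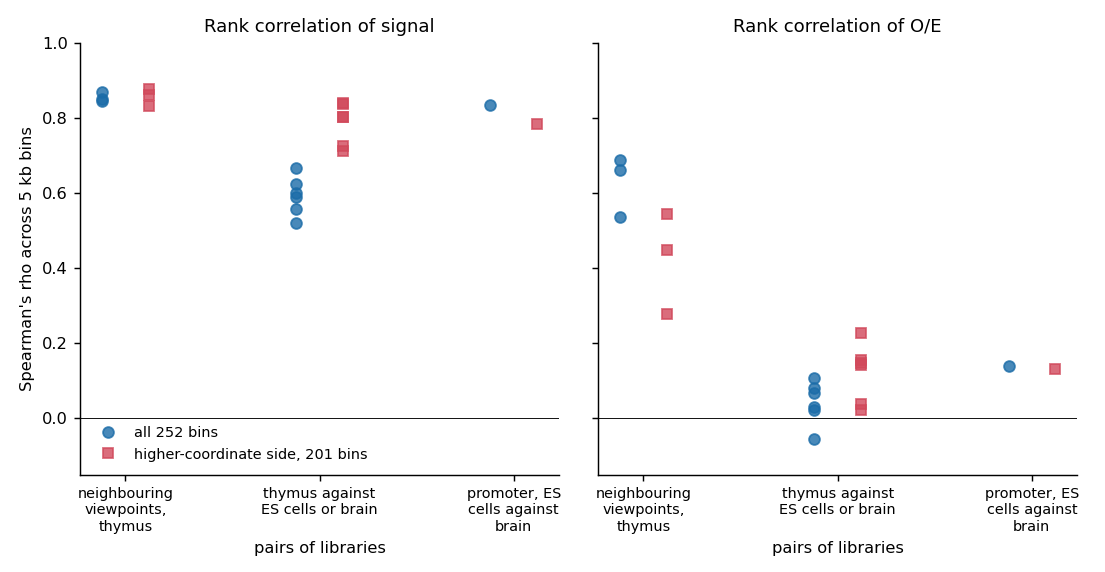
Spearman's rho across 5 kb bins for pairs of libraries, of signal in the left panel and of O/E in the right one, with circles for all 252 bins and squares for the 201 bins of the higher side. Pairs are the 3 thymus viewpoints, thymus against ES cells or brain, and ES cells against brain. For the thymus viewpoints rho of signal is 0.84 to 0.87 over all bins, and rho of O/E is 0.54 to 0.69.

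The authors' smoothing width, with the middle values and the monotone decay, moved these values without changing which pair was least alike in O/E. Over all 48 windows from 2 to 49 kb, rho of signal ran from 0.818 to 0.917 for promoter and +1.5 kb, from 0.799 to 0.949 for promoter and -6 kb and from 0.801 to 0.882 for +1.5 kb and -6 kb. The rank correlation of O/E ran from 0.612 to 0.717, from 0.645 to 0.803 and from 0.507 to 0.556. At every width in this range +1.5 kb and -6 kb had the lowest rho of O/E by these ranges.

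**Figure D4:**
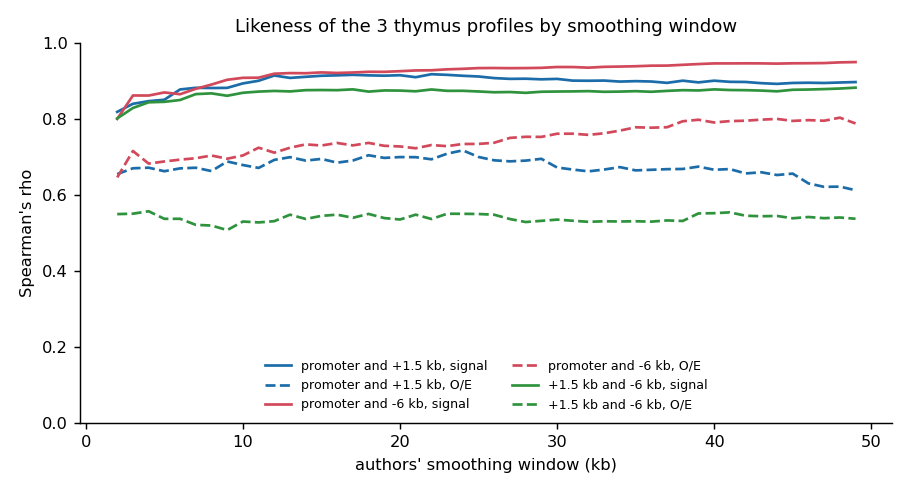
Spearman's rho of signal and of O/E between pairs of thymus viewpoints against the authors' smoothing window in kb. The rank correlation of O/E for +1.5 kb and -6 kb stays between 0.507 and 0.556, below the ranges of the other pairs.

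Differences beyond 2-fold were common and mostly ran toward the -6 kb library. Promoter signal was over 2-fold above +1.5 kb in 27 bins (10.7%), and +1.5 kb was above the promoter in 34 (13.5%). Against -6 kb, the promoter was higher in 17 bins (6.75%) and lower in 66 (26.2%). From +1.5 kb, signal was over 2-fold above -6 kb in 21 bins (8.33%), and -6 kb was above it in 93 (36.9%). These counts include bins at the floor. Above the floor in both libraries, promoter signal was over 2-fold higher than +1.5 kb in 24 bins (26.1%) and lower in 19 (20.7%). That order is the opposite one. Against -6 kb, the promoter was then higher in 8 (8.51%) and lower in 21 (22.3%). The +1.5 kb library was higher than -6 kb in 19 (14.8%) and lower in 54 (42.2%). Both comparisons with -6 kb thus kept their direction, with fewer bins. Between 100 and 700 kb upstream the -6 kb library was the highest of the 3 in 79 of 120 bins, the +1.5 kb library in 27 and the promoter library in 14. In that stretch the 90th percentile of scaled signal was 2.10 from the promoter, 2.95 from +1.5 kb and 2.07 from -6 kb. The 10th percentile was 0.39 from -6 kb and lay under the floor in the other two libraries, so their spread has no exact ratio. Floor bins numbered 36 of 50 from the promoter, 24 from +1.5 kb and 2 from -6 kb between 450 and 700 kb upstream.

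Window ranges that did not overlap were counted separately, whatever the fold between the middle values. The lower and higher window values of promoter and +1.5 kb did not part in any bin, at 0% in either direction. The promoter range lay above the -6 kb range in 5 bins (1.98%) and below it in 1 (0.397%). In each of the 5 the promoter value was under its floor of 0.327, and among bins above the floor in both libraries the ranges of this pair parted in 0. The +1.5 kb range lay above the -6 kb range in 3 bins (1.19%) and below it in 1 (0.397%). Of the 3, those at 52.395 and 52.610 Mb were empty from -6 kb, with lower values of 0.007 and 0.056 from +1.5 kb. Among bins above the floor in both libraries, the ranges of this pair parted in 1 bin in each direction. The sources used here do not name the quantile levels of these outer values, so the ranges are no confidence intervals.

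Of the 18 largest ratios, up to 3 per pair and direction and with some bins in more than one list, 16 lay on the higher side and 2 on the lower side. The higher side holds 201 of the 252 bins. Each listed bin also had to be in the top 25% of its higher library, which bins at the floor cannot easily meet. The split by side is therefore no result about the ratios. Near the gene, differences lay on both sides. At 52.020 Mb the promoter library read 20.2, the +1.5 kb library 9.18 and the -6 kb library 3.04, a log2 difference of 2.69 between promoter and -6 kb. At 51.990 Mb the values were 14.7, 2.20 and 7.29, with +1.5 kb the low one. Both bins are the near upstream flank, where the promoter library was highest. At 51.945 Mb on the lower side the +1.5 kb library read 8.93, against 2.96 from the promoter and 1.49 from -6 kb.

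Farther out, different libraries were the highest at different bins. At 52.080 Mb the -6 kb library read 2.74, the promoter library 1.49 and the +1.5 kb library 0.18, a log2 difference of -3.34 between +1.5 kb and -6 kb. At 52.440 Mb, 468 kb upstream, the +1.5 kb library read 3.21 and the promoter library 0.25, with 1.29 from -6 kb. At 52.235 Mb, 263 kb upstream, the -6 kb library read 2.44, the promoter library 0.23 and the +1.5 kb library 0.18. The window ranges there, 1.53 to 3.67 from -6 kb, 0.15 to 5.91 from the promoter and 0.09 to 3.76 from +1.5 kb, overlapped. The bin at 52.610 Mb read 1.88 from +1.5 kb and 0.15 from the promoter, and was empty from -6 kb. The promoter values of 0.25, 0.23 and 0.15 were under that library's floor of 0.327. The +1.5 kb value of 0.18 was just over that library's floor of 0.173. The sizes of these ratios are therefore not exact. At 52.080 Mb the ranges of +1.5 kb and -6 kb overlapped, at 0.09 to 6.52 and 0.60 to 4.26. At 52.440 Mb those of promoter and +1.5 kb did too, at 0.16 to 4.98 and 0.11 to 9.87.

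The -470 kb viewpoint is the one distal element of the locus that the study itself looked from, and lay at 52.420 Mb, 446 kb from the promoter viewpoint. In the target from 52.415 to 52.425 Mb, scaled signal was 1.58 from the promoter, 5.81 from +1.5 kb and 1.32 from -6 kb, against 0.109 in ES cells and 0.555 in brain. The window ranges were 0.164 to 8.27, 0.618 to 17.9 and 0.446 to 2.63 in thymus, and they overlapped. O/E was 1.97, 5.58 and 1.23, at percentiles 89.03, 99.6 and 76.4 of distance-matched positions. All 3 thymus viewpoints were thus above expectation, by amounts that differed by a log2 O/E of 2.48 from +1.5 kb against 0.30 from -6 kb, while brain was at 0.874. The ES signal there equalled that library's commonest value, under its floor, so the ES value of 0.912 gives no direction. With the lower window values the log2 O/E from -6 kb was -0.052, so its direction there is not settled.

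Looking back from the -470 kb viewpoint in thymus, the region of the 3 viewpoints was high as well. O/E was 2.43 at the promoter, 2.69 at +1.5 kb and 2.31 at -6 kb, at percentiles 96.1, 98.1 and 95.7. The 3 targets are 10 kb wide and overlap, so they are not separate measurements. The order of the targets from that end, +1.5 kb highest and -6 kb lowest, was the order from the near end, within differences that were much smaller.

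**Figure D5:**
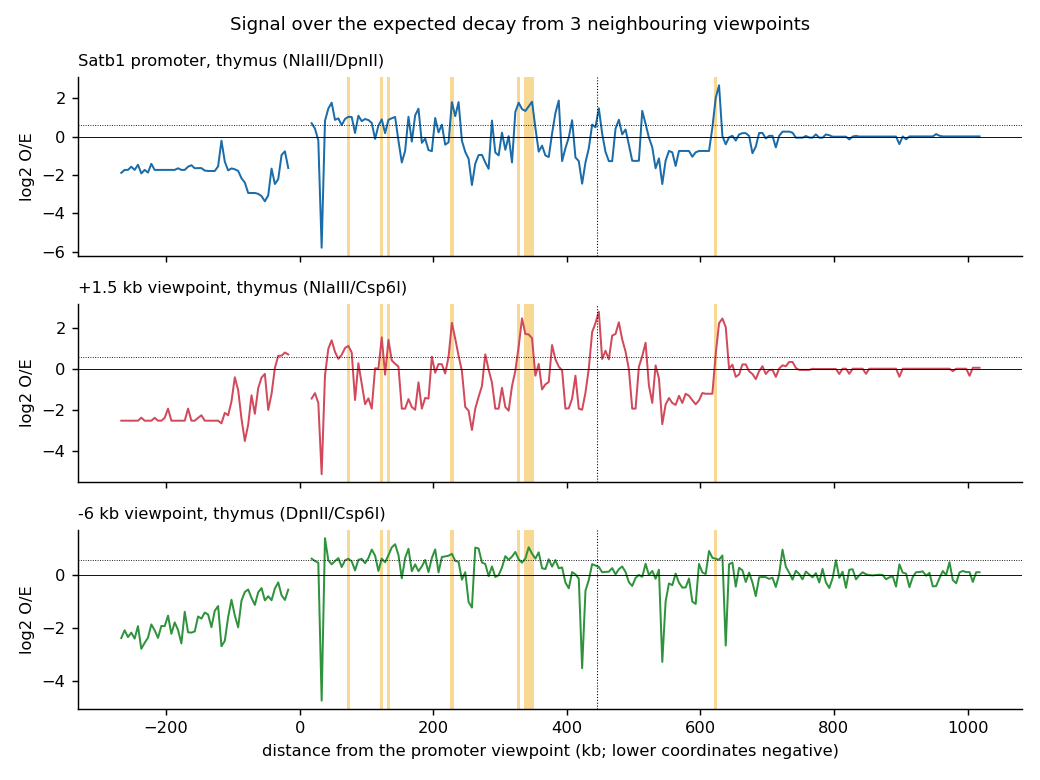
Log2 O/E against distance from the promoter viewpoint in kb, 1 panel for each of the 3 thymus viewpoints; yellow bands mark the 7 regions at O/E 1.5 or more from all 3, the horizontal dotted line that threshold, and the vertical one the -470 kb viewpoint at 446 kb. The values lie below 0 over nearly all of the lower-coordinate side, and in the target around the -470 kb viewpoint log2 O/E is 0.98 from the promoter, 2.48 from +1.5 kb and 0.30 from -6 kb.

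Other upstream bins also stood above the decay from more than one viewpoint. An O/E of 1.5 or more was reached in 44 bins from the promoter (17.5%), 40 from +1.5 kb (15.9%) and 38 from -6 kb (15.1%), against 24 in ES cells (9.52%) and 8 in brain (3.17%). All of those from the promoter and -6 kb, and 36 of those from +1.5 kb, lay on the higher side, which holds 201 of the 252 bins. In fetal brain all 8 lay on the higher side as well, while ES cells had 12 on each side. Promoter and +1.5 kb shared 24 of them, 54.5% of the promoter's and 60% of the other's. Promoter and -6 kb shared 21 (47.7% and 55.3%), and +1.5 kb and -6 kb shared 12 (30% and 31.6%).

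Shared by all 3 were 9 of the 252 bins, in 7 regions. All lay upstream, as did every bin of the promoter and -6 kb lists. Of these 9 bins, 1 also reached 1.5 in ES cells and 1 in brain, where 9.52% and 3.17% of all bins did. Nearest was 52.045 Mb, 73 kb upstream, with O/E 2.05, 2.21 and 1.54 from promoter, +1.5 kb and -6 kb. Then came 52.095 Mb (1.87, 2.94 and 1.54) and 52.105 Mb (1.84, 2.71 and 1.68), in the same order. At 52.200 Mb, 228 kb upstream, O/E was 3.48, 4.81 and 1.75, against 1.05 in ES cells and 0.968 in brain. This was the region with the highest O/E from +1.5 kb among the 7. From all 7 regions the -6 kb value was the lowest of the 3, between 1.52 and 1.79.

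Farther upstream lay 3 more shared regions. At 52.300 Mb O/E was 3.41, 2.17 and 1.52. The run from 52.310 to 52.325 Mb read 3.02, 3.14 and 1.79, with scaled signals of 2.61, 3.22 and 2.11. In ES cells its O/E was 1.67, at a scaled signal of 0.602. At 52.595 Mb, 623 kb upstream, O/E was 4.06, 1.68 and 1.54, against 0.982 in ES cells and 1.99 in brain. The last region is the only one of the 7 to pass from all 3 viewpoints when the decay was fitted to each side alone, so the O/E of the others rests partly on the low lower side in the common decay. With that decay the run at 52.310 Mb read 2.34, 2.32 and 1.29, and 52.200 Mb read 2.37, 3.56 and 1.22.

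The highest maxima of O/E overlapped in part. Up to 5 maxima were taken per library, at least 20 kb apart. From the promoter they lay at 52.598, 52.319, 52.019, 52.206 and 52.359 Mb, and 3 of the 5 had a maximum of +1.5 kb within 10 kb and 2 had one of -6 kb. From +1.5 kb the maxima lay at 52.418 (5.71), 52.607 (5.21), 52.311 (4.53), 52.452 (4.25) and 52.204 Mb (3.62). The highest is inside the target around the -470 kb viewpoint. Only 1 maximum, at 52.319 Mb, was found from all 3 viewpoints. It lay 4 kb from the highest maximum of ES cells, at 52.323 Mb. The promoter's maximum at 52.598 Mb lay 2 kb from the highest of fetal brain, at 52.600 Mb. Of the promoter's 5 maxima, 2 had a maximum of brain within 10 kb and 1 had one of ES cells.

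From -6 kb the maxima were lower, at 52.117 (2.19), 52.239 (2.01), 52.015 (1.99), 52.318 (1.98) and 52.084 Mb (1.78). The maximum at 52.239 Mb had no listed maximum of the promoter or +1.5 kb within 10 kb. O/E there was 0.442 from the promoter and 0.324 from +1.5 kb. In the bin at 52.235 Mb the promoter value of 0.23 was under its floor of 0.327. The +1.5 kb value of 0.18 was just over its floor of 0.173, so how low these O/E values are is not settled. The viewpoint of that library and its DpnII first cut cannot be told apart.

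Some bins were low from everywhere. The bin at 52.005 Mb, 33 kb upstream, was empty in all 5 libraries. Of the positions, 23 were empty in all 3 thymus libraries, and 22 of these were empty in ES cells and brain too. In all 3 thymus libraries 56 bins were at the floor, 7 on the lower side and 49 on the higher side. Only 3 of the latter lay within 700 kb of the promoter viewpoint, beyond which mean scaled signal was 0.17 from the promoter, 0.09 from +1.5 kb and 0.13 from -6 kb.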

How the data were processed

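Libraries were grouped by viewpoint, tissue and enzyme pair from the labels, 1 library per group. The deposited files give a contact signal that the authors normalized and smoothed over running windows, in 3 columns per window, a middle value with a lower and a higher one. The build was mm9, per the submitters' processing notes. The sources used here do not give the aligner, the filters or the read numbers, so depth and counting error are unknown.

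The middle column of the 5 kb window was averaged in bins of 5 kb, leaving out 10 kb around each viewpoint, and divided by each library's mean. The pseudocount was 0.1 of that mean, and values under 1e-09 were counted as empty. The decay was an isotonic fit over both sides. Named positions were the -470 kb viewpoint and runs shared by all 3 viewpoints. Also named were up to 5 maxima of O/E above 1 per library in the top 25% of signal. Up to 3 bins per pair and direction with the largest ratio were named too. These bins were at least 20 kb apart, with the higher library in its top 25% of signal. The members and lists were chosen with earlier results of these data known. The O/E fit was tested on simulated profiles with a smooth decay, equal sides and no floor. Those profiles do not cover the floor and the uneven sides of these data. Python 3.11.15, numpy 2.4.6, pandas 2.3.3, scipy 1.17.1, scikit-learn 1.9.0 and matplotlib 3.10.9 were used. Alternatives changed the window, column, decay, pseudocount, bin size and thresholds, and GRCm38.p6 tables from RefSeq supplied gene order and the promoter sequence.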

Additional observations from a re-analysis of the deposited data

How the results depend on the processing

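Of 239 alternative values for 20 results, 177 stayed within a set tolerance (0.1 in rho, 0.5 in log2, 10 percentage points, the 95% Wilson interval for shares of bins, 1.5 times for counts), 61 moved and 1 reversed. No paired analysis was possible because each group held 1 library. The alternatives restricted to bins above the floor or to the higher side, and those with viewpoints at the label offsets, were chosen after seeing the data. The cause was not tested, except that restricted settings use fewer bins. Pairs are given in the order promoter and +1.5 kb, promoter and -6 kb, +1.5 kb and -6 kb.

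With the lower column, rho of signal was 0.634, 0.697 and 0.725, rho of O/E 0.367, 0.494 and 0.378, and bins over 2-fold apart 30.6%, 42.9% and 38.5%. Log2 O/E at the -470 kb site was then 0.37 from the promoter and reversed to -0.052 from -6 kb, and the higher-side share from +1.5 kb was 47.03%. With the higher column, bins over 2-fold apart were 17.1% for the first pair and 36.1% for the last, log2 O/E from +1.5 kb was 1.83, and 0 maxima were shared by all 3. With the decay fitted by side, rho of O/E was 0.536, 0.296 and 0.287, shared maxima 3 and shared bins 1. With a power-law decay, log2 O/E at the -470 kb site was 2.00 from the promoter, 4.04 from +1.5 kb and 1.45 from -6 kb, shared maxima 2 and shared bins 41. Above the floor, rho of signal was 0.577, 0.561 and 0.466, rho of O/E 0.478, 0.428 and 0.315, and bins over 2-fold apart 46.7% for the first pair and 57.03% for the last. On the higher side alone, rho of O/E was 0.542, 0.448 and 0.278. A pseudocount of 1% gave 35.7%, 50.4% and 56.3% of bins over 2-fold apart, and 50% gave 17.9%, 13.5% and 22.2%, with 4 shared bins. For promoter and -6 kb, bins of 10 kb gave 27.2% over 2-fold apart and 0.8% with ranges apart, and bins of 20 kb gave 19.7% and a rho of O/E of 0.812. For +1.5 kb and -6 kb, ranges apart came to 0 in bins of 10 and 20 kb and to 0.4% with the 20 kb window. With the 2 kb window they came to 7.51% and 6.72% for the last 2 pairs, with 2 shared maxima. Shared bins numbered 5 and 2 in bins of 10 and 20 kb, and 1 with an O/E threshold of 2. The 10 kb window gave 2 shared maxima, and sharing within 5 kb gave 0. A target reaching 2.5 kb to either side gave a log2 O/E of 1.56 from the promoter. The +1.5 kb share was 72.4% with 20 kb left out and 76.7% over the full reach.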
